A study of Mus musculus with 48 samples.

Results

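The 10 genes described here encode acute phase proteins, plasma proteins whose production changes when inflammation is present. They were chosen by name, as the serum amyloid A genes Saa1, Saa2 and Saa3, haptoglobin (Hp), hemopexin (Hpx), the orosomucoids Orm1 and Orm2, the pentraxins Crp and Apcs, and lipocalin 2 (Lcn2), and were found by Ensembl identifier among the 55416 genes counted. All 10 passed the filter on low counts, which left 15711 genes for testing. RNA was sequenced from whole livers of 48 mice, 8 in each of 6 groups, all labelled C57Bl/6J and fed a western diet for 8 weeks from the age of 8 weeks. DN:WT, DN:HET and DN:HOM were wild-type, heterozygous and homozygous males of a knock-in line in which CRISPR-Cas9 exchanged a tryptophan for an arginine in the ligand-binding domain of LXRα, a dominant-negative (DN) change, and which descends from 1 founder. KO:WT, KO:HET and KO:HOM carried 0, 1 or 2 copies of an LXRα knockout allele, in a line that began on a mixed Sv129/C57Bl/6 background, was backcrossed and was kept at another site. The sex of the KO mice was not given in the sources used here. LXRα is the oxysterol-activated nuclear receptor encoded by Nr1h3, and both alleles were carried by all cells of the body. Colony, site and allele cannot be told apart between the 2 studies, so each group was compared with the wild-type mice of its own study.

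Production of most of these proteins by hepatocytes rises in inflammation, when interleukin-6 acts through STAT3 and interleukin-1 and TNF act through NF-kB, with C/EBP factors binding many of the promoters. Serum amyloid A travels on high-density lipoprotein, haptoglobin and hemopexin capture free haemoglobin and haem, and lipocalin 2 withholds iron by binding bacterial siderophores. Orosomucoids carry small lipophilic molecules, and the pentraxins are pattern-recognition proteins, of which serum amyloid P (Apcs) rather than C-reactive protein (Crp) is the strong acute phase reactant of the mouse. Saa3 and Lcn2 are also made by macrophages or neutrophils, so in whole liver their reads need not come from hepatocytes.

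Levels are given as read counts relative to the size of the library (CPM) on TMM-scaled library sizes. A fold change is the log2 difference between 2 groups with its standard error (SE), and an adjusted p is that of edgeR's quasi-likelihood test after Benjamini-Hochberg adjustment over all genes tested, with a threshold of 0.05. Reads on genes ranged from 5332897 to 16961379 per liver (median 15879971), and 2 livers, 1 KO:HET and 1 KO:HOM, had under 10000000. Nr1h3 had a median of 26.4 CPM in KO:HOM and 90.2 CPM in KO:WT livers, so the knockout livers still held some Nr1h3 reads. Reads are not marked for molecules, and the p-values describe the spread between mice. The library labelled DN:WT animal 10 and the library labelled DN:HOM animal 12 resembled the opposite genotype in most of these genes. Animal 10 lay within the range of the other DN:HOM livers for 9 of the 10 genes and within that of the other DN:WT livers for 3, Saa1, Saa2 and Crp. Animal 12 lay within the range of the other DN:WT livers for 10 of 10 genes and within that of the other DN:HOM livers for 0. Whether their labels were exchanged cannot be settled from the sources used here, and every value given for all 48 livers takes the labels as they stand. They were left out of the values below unless stated, as they also are in tables that accompany the paper for other genes, which leaves 7 DN:WT and 7 DN:HOM livers. In animal 10 Lcn2 stood at 928 CPM and Hp at 7985 CPM. The other DN:WT livers reached at most 59.98 and 4408 CPM. In animal 12 Lcn2 stood at 28.2 CPM and Hp at 2923 CPM, whereas no other DN:HOM liver fell below 311 and 6114 CPM. In whole liver, a change in the number of cells of a type and a change in RNA per cell cannot be told apart.

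The bases before the start sites of 5 of these genes are shown, as examples of genes that moved together between mice or differed between homozygous and wild-type livers. Those of Hpx, Crp and Saa3 are not shown, although Hpx and Crp also differed between such livers. The bases come from RefSeq and were placed on GRCm39 by exact match. Each run is 250 bases, written 5′ to 3′ on the strand of the gene. The RefSeq promoter table used here matched 8 of the 10 genes, and Hp and Orm1 were not analysed in this way. Capitals mark matches, on either strand, to TTNNGNAA, a C/EBP motif, or to TTCNNNGAA, the STAT3 consensus.
Saa1 (chr7:46392405-46392654, minus strand): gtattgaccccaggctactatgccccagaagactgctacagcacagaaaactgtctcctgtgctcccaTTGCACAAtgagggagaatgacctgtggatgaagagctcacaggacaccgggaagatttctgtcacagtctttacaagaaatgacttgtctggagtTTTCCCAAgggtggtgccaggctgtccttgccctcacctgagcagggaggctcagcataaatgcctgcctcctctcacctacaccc
Saa2 (chr7:46401007-46401256, plus strand): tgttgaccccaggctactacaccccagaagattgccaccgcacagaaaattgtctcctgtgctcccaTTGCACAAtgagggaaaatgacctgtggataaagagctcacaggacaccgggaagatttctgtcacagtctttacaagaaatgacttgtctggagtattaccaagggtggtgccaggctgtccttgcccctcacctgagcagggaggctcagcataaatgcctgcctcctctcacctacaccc
Orm2 (chr4:63280436-63280685, plus strand): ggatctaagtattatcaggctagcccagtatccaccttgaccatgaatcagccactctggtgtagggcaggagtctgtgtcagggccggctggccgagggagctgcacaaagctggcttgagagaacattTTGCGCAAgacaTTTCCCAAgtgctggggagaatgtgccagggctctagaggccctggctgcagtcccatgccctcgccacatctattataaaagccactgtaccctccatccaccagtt
Lcn2 (chr2:32277752-32278001, minus strand): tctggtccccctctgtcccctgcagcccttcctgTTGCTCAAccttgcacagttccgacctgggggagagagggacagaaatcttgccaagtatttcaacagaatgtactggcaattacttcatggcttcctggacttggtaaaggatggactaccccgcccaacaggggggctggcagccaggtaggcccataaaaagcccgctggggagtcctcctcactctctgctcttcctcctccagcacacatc
Apcs (chr1:172722622-172722871, minus strand): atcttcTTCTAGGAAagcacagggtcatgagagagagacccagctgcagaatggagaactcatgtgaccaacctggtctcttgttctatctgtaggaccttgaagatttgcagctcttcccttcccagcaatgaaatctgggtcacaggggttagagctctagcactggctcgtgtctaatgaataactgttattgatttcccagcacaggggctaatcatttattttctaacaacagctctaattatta

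Saa1 and Saa2 lie on opposite strands of chromosome 7, and 238 of 249 aligned bases of these stretches (95.6%) were identical. Both hold TTGCACAA, and Saa1 holds a second match, TTTCCCAA, between 86 and 79 bases before the start. Orm2 has TTGCGCAA and TTTCCCAA close together, and Lcn2 has TTGCTCAA. Over windows of 300 bases (250 before the start and 50 after) and both strands, the C/EBP letters were found in 7 of the 8 genes and in 40.7% of 27025 mouse promoters. The STAT3 letters were found in Apcs only of the 8 (8.47% of promoters), and an NF-kB consensus of 10 letters in 0 of 8 (8.18% of promoters). The Lcn2 and part of the Saa1 and Saa2 stretches lie within the longer gene models of the GENCODE annotation. A match gives the letters of a motif and does not show that a factor binds there.

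In homozygous knock-in livers, 6 of the 10 genes rose against DN:WT livers and 1 fell, beside 29.1% of all tested genes called higher and 30% called lower. Lcn2 rose 27.1-fold, Orm2 7.90-fold, Hp 2.65-fold, Hpx 2.64-fold, Apcs 2.10-fold and Orm1 1.502-fold, and Crp fell slightly under TMM scaling. The 3 serum amyloid A genes did not pass the threshold in this fit. In homozygous knockout livers 4 genes rose, Lcn2 (5.44-fold), Orm2 (3.73-fold), Hpx (1.48-fold) and Hp (1.39-fold), beside 11.5% of tested genes called higher. The median log2 fold change of the 10 genes was 1.22 in the knock-in and 0.64 in the knockout study, against medians of -0.012 and -0.022 over all tested genes. The counts of DN:HOM depend on the scaling. With library size alone 8 of the 10 genes were higher and 0 lower in DN:HOM livers, beside 59.1% of tested genes higher and 11.1% lower, and in KO:HOM livers 4 of the 10 were higher, beside 2622 tested genes higher and 437 lower. With the 2 left-out libraries under their labels, 6 of the 10 passed in DN:HOM (all higher, beside 23% of tested genes) and 2 in KO:HOM, Orm2 and Lcn2 (beside 8.79%). The KO livers are the same in both fits, which take the spread of a gene over all 6 groups.

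**Figure D1:**
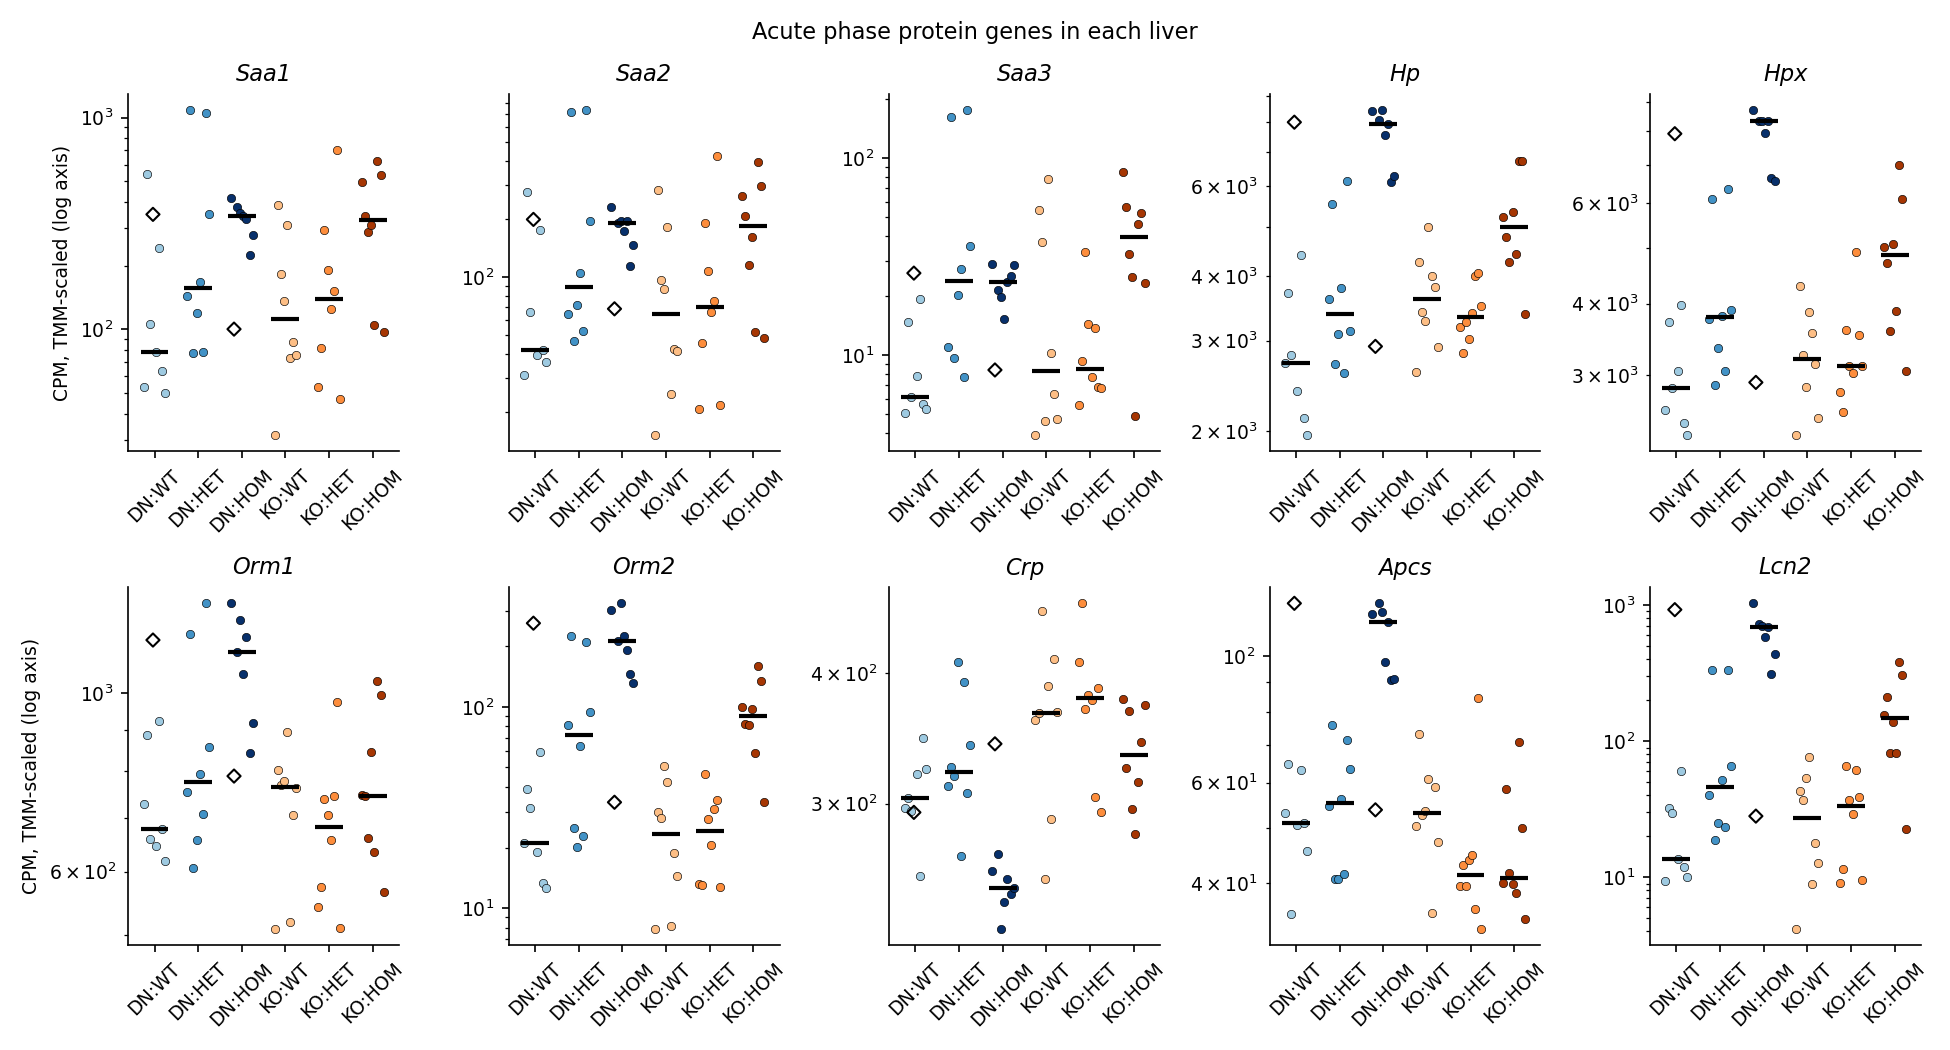
Level of each of the 10 genes in every liver, on a log axis of CPM on TMM-scaled library sizes, by genotype group. Points are livers, bars are medians of the 46 livers used and open diamonds are the libraries labelled DN:WT animal 10 and DN:HOM animal 12. On this scale the 7 DN:HOM livers lie above all 7 DN:WT livers for Hp, Hpx, Orm2, Apcs and Lcn2, while the serum amyloid A genes overlap between groups.

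Groups that did not overlap give a view that needs no model, though it rests on the scaling of the libraries, here TMM. Every DN:HOM liver lay above every DN:WT liver for 5 of the 10 genes, Hp, Hpx, Orm2, Apcs and Lcn2, which was so for 17.8% of all tested genes. This separation needs animals 10 and 12 left out, and with both under their labels it held for 0 of the 10 genes and for 0.0509% of tested genes. In the knockout study it was so for 0 of 10 genes and for 2.18% of tested genes, although 7 of 8 KO:HOM livers exceeded every KO:WT liver for Orm2 and for Lcn2. On unscaled CPM without animals 10 and 12, DN:HOM also lay above all DN:WT livers for Orm1 and Saa3. Orm1 was then at least 1019 against at most 862 CPM, and Saa3 at least 19.2 against at most 17.8 CPM. The share of all tested genes was not computed on that scale. Together the 10 genes took 0.689% ± 0.174 of all reads on genes in DN:WT (SD, n = 7), 2.35% ± 0.346 in DN:HOM (SD, n = 7), 0.767% ± 0.162 in KO:WT (SD, n = 8) and 1.19% ± 0.333 in KO:HOM livers (SD, n = 8). Most of that share was Hp and Hpx.

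Lcn2 (ENSMUSG00000026822, chromosome 2 of GRCm39 from 32274645 to 32278264) encodes the siderophore-binding lipocalin and had the largest change of the 10 genes in both studies. DN:WT livers had 9.37 to 59.98 CPM (median 13.6) and DN:HOM livers 311 to 1034 CPM (median 687), a log2 fold change of 4.76 (SE 0.71, edgeR adjusted p = 1.8e-07). Without animals 10 and 12, the lowest DN:HOM liver was thus several times above the highest DN:WT liver. KO:WT livers had 4.20 to 76.4 CPM (median 27.3) and KO:HOM livers 22.7 to 380 CPM (median 147), a log2 fold change of 2.44 (SE 0.60, edgeR adjusted p = 0.0026). These groups overlapped through 1 KO:HOM liver. The knock-in effect exceeded the knockout effect by 2.32 (SE 0.85, edgeR adjusted p = 0.029). This difference was lost without DN:WT animal 2 or 28 or KO:WT animal 31, with adjusted p from 0.051 to 0.063. With both left-out libraries under their labels the knock-in change was 2.04 (edgeR adjusted p = 0.032) and the difference between the studies was -0.41 (edgeR adjusted p = 0.85), so the order of the 2 effects depends on these libraries.

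The 2 orosomucoid genes, neighbours on chromosome 4, responded to different extents. Orm2 (ENSMUSG00000061540, from 63280686 to 63284115) had 12.5 to 59.4 CPM in DN:WT (median 21.2) and 131 to 327 CPM in DN:HOM livers (median 212), a log2 fold change of 2.98 (SE 0.47, edgeR adjusted p = 7.2e-07). KO:WT livers had 7.91 to 50.6 CPM (median 23.4) and KO:HOM livers 33.6 to 159 CPM (median 90.3), a log2 fold change of 1.90 (SE 0.43, edgeR adjusted p = 0.0012). Among the 46 livers Orm2 separated DN:HOM from DN:WT fully, and 7 of 8 KO:HOM from all KO:WT livers. The groups of the knock-in study overlap when animal 10 (260.4 CPM) and animal 12 (33.6 CPM) are kept under their labels. Orm1 (ENSMUSG00000039196, from 63261052 to 63272189), the more abundant of the pair, had 618 to 922 CPM in DN:WT (median 678) and 842 to 1293 CPM in DN:HOM livers (median 1125), a log2 fold change of 0.59 (SE 0.16, edgeR adjusted p = 0.0012). In the knockout study its medians were 765 CPM in KO:WT and 746 CPM in KO:HOM livers (log2 fold change 0.11, SE 0.15, edgeR adjusted p = 0.64). The difference between the studies did not pass the threshold for Orm2 (1.08, SE 0.61, edgeR adjusted p = 0.17) or for Orm1 (0.47, SE 0.21, edgeR adjusted p = 0.079). For Orm1 it passed with library size alone (0.79, edgeR adjusted p = 0.0059), which moves the median gene of this difference up by 0.31, and without KO:WT animal 1 or 32 or KO:HOM animal 26 (edgeR adjusted p from 0.042 to 0.050). Another orosomucoid gene, Orm3, was not among the 10 and went the other way in the knock-in, with a log2 fold change of -1.96 (edgeR adjusted p = 1.6e-04) against 1.31 in the knockout (edgeR adjusted p = 0.013). The difference was -3.27 (SE 0.59, edgeR adjusted p = 2.3e-05). Over all 48 livers the knock-in changes were 1.78 for Orm2 and 0.42 for Orm1, both still past the threshold.

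Because the 2 orosomucoid genes are alike, their ratio within a liver was also compared, which needs no scaling between livers. Of the reads on Orm1 and Orm2 together, Orm2 held 3.49% ± 1.52 in DN:WT (SD, n = 7), 8.38% ± 4.91 in DN:HET (SD, n = 8) and 16.4% ± 2.98 in DN:HOM livers (SD, n = 7). The shares in the knockout study were 3.16% ± 1.61 in KO:WT, 3.40% ± 1.21 in KO:HET and 10.3% ± 2.37 in KO:HOM livers (SD, n = 8 each). Orm1 thus stayed the major form in every group, while Orm2 took a larger share in homozygous livers of both lines. The rise was 12.9 percentage points in the knock-in study (p = 0.00058 by a two-sided exact permutation test, which 7 against 7 livers cannot undercut, and 0.0023 after Benjamini-Hochberg adjustment over 8 share tests). It was 7.13 points in the knockout study (exact permutation p = 0.00031, adjusted 0.0023). The DN:HET difference of 4.88 points did not pass after adjustment (exact permutation p = 0.024, adjusted 0.065), but did without DN:HET animal 8, 14 or 20 (adjusted exact permutation p from 0.028 to 0.039). In the left-out libraries the share was 18.3% in animal 10 and 4.08% in animal 12. The coding sequences of the pair are 89.9% identical, and 47 of 726 stretches of 100 bases of the Orm1 transcript (6.47%) occur unchanged in Orm2. Reads from such stretches fit both genes and are not counted for either. Orm1 also overlaps Gm11212 on its own strand, where reads of the 2 genes are uncertain.

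**Figure D2:**
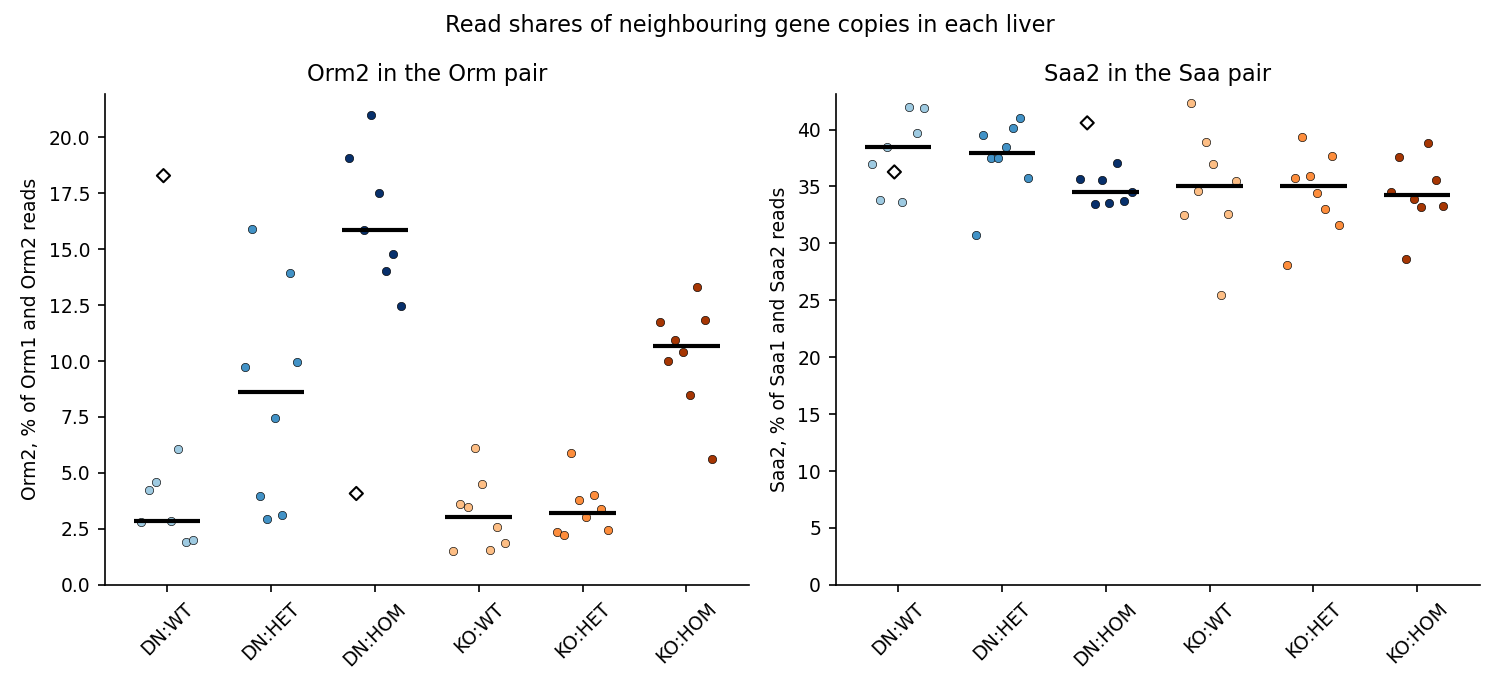
Share of Orm2 in the reads on Orm1 and Orm2, and of Saa2 in the reads on Saa1 and Saa2, in percent, for each liver by group, with both axes starting at 0. The Orm2 share is higher in DN:HOM (mean 16.4%) and KO:HOM (mean 10.3%) than in wild-type livers (means 3.49% and 3.16%), while the mean Saa2 share stays between 34.4% and 38.1% in all 6 groups.

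Haptoglobin and hemopexin, the scavengers of free haemoglobin and haem, were the most abundant of the 10 transcripts and rose in both lines. Hp (ENSMUSG00000031722, chromosome 8 from 110301759 to 110305804) had 1963 to 4408 CPM in DN:WT (median 2711) and 6114 to 8443 CPM in DN:HOM livers (median 7921), a log2 fold change of 1.40 (SE 0.18, edgeR adjusted p = 5.3e-09). Hpx (ENSMUSG00000030895, chromosome 7 from 105240817 to 105249344) had 2355 to 3973 CPM in DN:WT (median 2845) and 6550 to 8731 CPM in DN:HOM livers (median 8338), a log2 fold change of 1.40 (SE 0.17, edgeR adjusted p = 3.8e-09). Without animals 10 and 12, all DN:HOM were above all DN:WT livers for both genes, and the 2 fold changes were equal to 2 decimals. In the KO livers Hp had 2601 to 4983 CPM in KO:WT (median 3611) and 3375 to 6722 CPM in KO:HOM livers (median 4999.7), a log2 fold change of 0.47 (SE 0.16, edgeR adjusted p = 0.034). Hpx had 2356 to 4299 CPM in KO:WT (median 3194) and 3054 to 7003 CPM in KO:HOM livers (median 4864), a log2 fold change of 0.57 (SE 0.16, edgeR adjusted p = 0.0088). These groups overlapped, with 4 of 8 KO:HOM livers above every KO:WT liver for Hp and 5 of 8 for Hpx. The Hp call in the knockout study was lost in turn without KO:WT animal 1, 14 or 34 or KO:HOM animal 8, 26 or 27 (edgeR adjusted p from 0.051 to 0.088). The knock-in effect was larger than the knockout effect by 0.93 for Hp (SE 0.24, edgeR adjusted p = 0.0020) and by 0.83 for Hpx (SE 0.23, edgeR adjusted p = 0.0046). Over all 48 livers these differences were 0.51 and 0.43 and did not pass (edgeR adjusted p = 0.28 and 0.37). The KO:HOM changes, from the same KO livers, were then 0.48 (SE 0.22) for Hp and 0.57 (SE 0.21) for Hpx. Neither passed (edgeR adjusted p = 0.14 and 0.067). The fit takes the spread of a gene over all 6 groups, and the SE was larger with animals 10 and 12 in it.

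The 2 liver pentraxins moved in opposite directions in homozygous knock-in livers under TMM scaling. Apcs (ENSMUSG00000026542, chromosome 1 from 172721528 to 172722611), which encodes serum amyloid P, had 35.3 to 64.7 CPM in DN:WT (median 51.0) and 90.8 to 124 CPM in DN:HOM livers (median 115), a log2 fold change of 1.07 (SE 0.17, edgeR adjusted p = 9.9e-07). Without animals 10 and 12 the groups did not overlap. For KO mice the levels were 35.5 to 73.2 CPM in KO:WT (median 53.1) and 34.6 to 70.6 CPM in KO:HOM livers (median 40.8), with a log2 fold change of -0.21 (SE 0.16, edgeR adjusted p = 0.39, 95% interval from -0.53 to 0.11). The difference between the studies was 1.28 (SE 0.24, edgeR adjusted p = 3.6e-05), and Apcs was the only one of the 10 genes for which it still passed over all 48 livers (0.94, edgeR adjusted p = 0.026). Crp (ENSMUSG00000037942, from 172525614 to 172660598) had 256 to 347 CPM in DN:WT (median 304) and 228 to 269 CPM in DN:HOM livers (median 249), a log2 fold change of -0.28 (SE 0.10, edgeR adjusted p = 0.016). This fall depended on the scaling. With library size alone the median of all tested genes moved up by 0.42 in DN:HOM livers, and Crp then changed by 0.15 (edgeR adjusted p = 0.21), which is 0.27 below that median. With upper-quartile scaling it was -0.20 (edgeR adjusted p = 0.081) and over all 48 livers -0.22 (edgeR adjusted p = 0.059). KO:HOM livers had 280 to 378 CPM of Crp (median 334) against 254 to 459 CPM in KO:WT (median 367), a log2 fold change of -0.12 (SE 0.10, edgeR adjusted p = 0.42). Crp overlaps Gm38051 on its own strand.

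The serum amyloid A genes varied widely between mice of 1 group, and the homozygous and wild-type groups overlapped on TMM-scaled CPM. Saa1 (ENSMUSG00000074115, chromosome 7 from 46389916 to 46392547) had 50.2 to 541 CPM in DN:WT (median 77.9) and 225 to 418 CPM in DN:HOM livers (median 344), a log2 fold change of 1.06 (SE 0.61, edgeR adjusted p = 0.14). The highest of the 14 livers was wild-type animal 5, and without it the log2 fold change was 1.75 (edgeR adjusted p = 0.016). Saa2 (ENSMUSG00000057465, from 46401214 to 46403737) had 31.3 to 276 CPM in DN:WT (median 41.7) and 114 to 232 CPM in DN:HOM livers (median 191), with 0.93 (SE 0.66, edgeR adjusted p = 0.23). Saa3 (ENSMUSG00000040026, from 46361422 to 46365576) had 5.06 to 19.2 CPM in DN:WT (median 6.13) and 15.3 to 28.9 CPM in DN:HOM livers (median 23.4). Its log2 fold change was 1.36 (SE 0.65, edgeR adjusted p = 0.070), and 6 of 7 DN:HOM livers exceeded every DN:WT liver. Without DN:WT animal 17 the value for Saa3 was 1.64 (edgeR adjusted p = 0.041). With library size alone Saa1 and Saa3 passed (1.48 and 1.79, edgeR adjusted p = 0.037 and 0.018), 1.06 and 1.37 above the median gene. In a fit of DN:HOM and DN:WT alone, which takes the spread from these 2 groups, Saa1 was 1.07 (edgeR adjusted p = 0.044) and Saa3 1.37 (edgeR adjusted p = 0.00023). Saa3 also passed in such a fit with animals 10 and 12 (0.93, edgeR adjusted p = 0.047) and without DN:HET animals 4 and 22 (1.34, edgeR adjusted p = 0.033).

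In the knockout study no serum amyloid A gene passed. Saa1 had 31.6 to 386 CPM in KO:WT (median 112) and 97.0 to 621 CPM in KO:HOM livers (median 328), a log2 fold change of 1.12 (SE 0.58, edgeR adjusted p = 0.17, 95% interval from -0.01 to 2.25). Saa2 medians were 64.5 and 184 CPM (0.99, SE 0.62, edgeR adjusted p = 0.28) and Saa3 medians 8.25 and 39.6 CPM (0.71, SE 0.58, edgeR adjusted p = 0.43). Single KO:WT mice were high, for instance 78.3 CPM of Saa3 in 1 liver. Within DN:HOM the spread was narrow, with a coefficient of variation of 19.2% for Saa1 against 111% in DN:WT and 54.9% in KO:HOM livers, and of 33.4% in DN:HOM with animal 12 kept. Saa2 made up 38.1% ± 3.47 of their reads in DN:WT and 34.8% ± 1.36 in DN:HOM livers (SD, n = 7 each), a difference of -3.27 points (exact permutation p = 0.042, adjusted 0.084). Without DN:WT animal 5 or 13 this difference passed (-3.99 and -4.02 points, adjusted exact permutation p = 0.039 and 0.034). Their coding sequences are 95.1% identical, but 0 of 658 stretches of 100 bases of the Saa1 transcript occur in Saa2.

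**Figure D3:**
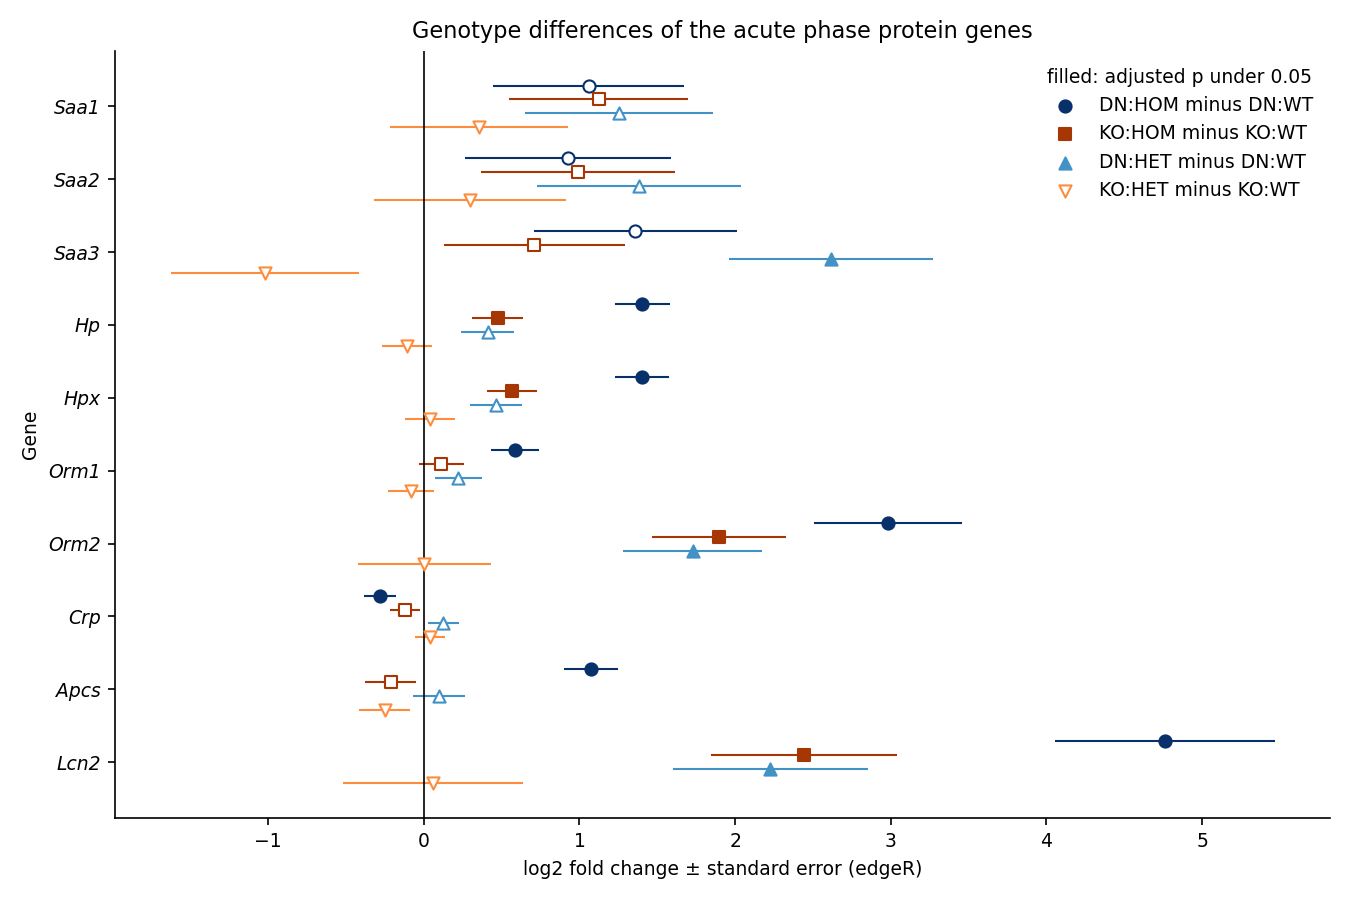
Log2 fold change of each of the 10 genes in the homozygous and heterozygous comparisons of both studies, with bars of 1 SE on each side, from the edgeR fit of 46 livers. Filled markers passed an adjusted p of 0.05. Lcn2 and Orm2 have the largest homozygous changes in both studies (4.76 and 2.98 in the knock-in, 2.44 and 1.90 in the knockout), and Apcs is raised in the knock-in study alone (1.07 against -0.21).

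In DN:HET livers 3 of the 10 genes passed against DN:WT, Saa3 (2.62, SE 0.66, edgeR adjusted p = 0.023), Orm2 (1.73, SE 0.45, edgeR adjusted p = 0.028) and Lcn2 (2.22, SE 0.63, edgeR adjusted p = 0.044), beside 2.23% of tested genes called higher. These calls depended on single mice, and 0 of the 10 genes passed without DN:WT animal 2, 7, 21 or 28 or DN:HET animal 4 or 22, each left out in turn. Of these, DN:HET animals 4 and 22 had the highest levels. Saa1 was 1089 CPM in animal 4 and 1054 CPM in animal 22, against 77.4 CPM in the lowest DN:HET liver and a group median of 156 CPM. Saa3 was 161 and 175 CPM in them (group median 23.8), Lcn2 333 and 332 CPM (median 46.2) and Orm2 224 and 209 CPM (median 72.7). The same mice had the highest Hp of the group, 5537 and 6131 CPM, and their Saa1 exceeded that of every DN:HOM liver. Without both, a setting chosen after the data were seen, 0 of the 10 genes passed by edgeR and the log2 fold changes were 1.02 for Saa3, 0.88 for Orm2, 0.65 for Lcn2 and -0.05 for Saa1. Over all 48 livers none passed either, and Lcn2 was then -0.30. The macrophage markers also stood apart in these mice, with a summed level of 888 and 932 CPM against a group median of 213 CPM, and so did those of resident Kupffer cells (591 and 636 CPM, median 251) and T cells (26.2 and 29.1 CPM, median 7.56). The neutrophil markers reached 35.7 and 47.2 CPM (median 10.9), of which Csf3r alone made 22.4 and 37.5 CPM, while S100a8 stood at 2.88 and 2.87 CPM. Their part in the levels was not tested. In KO:HET livers 0 of the 10 genes passed by edgeR or DESeq2, and 0 had an unadjusted p under 0.05, in a comparison that called 0.0191% of tested genes. Their median log2 fold change was 0.020.

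Homozygous livers were also set against heterozygous livers. In the knock-in study Lcn2 (2.53), Orm2 (1.26), Hp (0.99), Apcs (0.98), Hpx (0.94) and Orm1 (0.36) were higher and Crp was lower (-0.41) in DN:HOM, with edgeR adjusted p from 3.0e-06 to 0.038, beside 26.1% of tested genes higher and 27.8% lower (8620 genes higher and 1682 lower with library size alone). The size of the Crp fall depended on the scaling. On unscaled CPM mean Crp was 328.2 in DN:HET (range 257.9 to 389.4) and 320.6 in DN:HOM livers (range 290.3 to 346.8). Crp was thus nearly level on that scale, while library size alone moves the median gene of this comparison up by 0.35. Over all 48 livers Orm2 (1.08, edgeR adjusted p = 0.084) and Orm1 (0.30, edgeR adjusted p = 0.11) did not pass. Saa3 leaned the other way (-1.26, SE 0.60, edgeR adjusted p = 0.076). In the knockout study Lcn2 (2.39), Orm2 (1.90), Hp (0.58) and Hpx (0.53) were higher in KO:HOM (edgeR adjusted p from 0.0037 to 0.026), beside 7.24% of tested genes. Over all 48 livers Orm2 was the only one of them past the threshold (1.89, edgeR adjusted p = 0.035). These 4 genes were also the ones called against KO:WT. Lcn2 had 9.06 to 65.9 CPM in KO:HET livers (median 33.2). The wild-type livers of the studies did not differ past the threshold in any of the 10 genes by edgeR or DESeq2, whereas 12% of tested genes did. At an unadjusted p under 0.05 there were 3, Crp (-0.25), Saa3 (-1.46) and Hp (-0.36), each lower in DN:WT. The difference of the homozygous effects passed for 4 of 10 genes, Lcn2, Apcs, Hp and Hpx, all larger in the knock-in study, beside 16.5% of tested genes with a higher difference.

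Within groups, mice with more Saa1 also had more Saa2 and Lcn2, and mice with more Hp also had more Hpx. Pairs of genes were correlated on log2 CPM within each group of 7 or 8 livers, 270 correlations in all, with two-sided exact permutation tests adjusted over all of them. Saa1 and Saa2 had Pearson's r from 0.969 to 0.995 and Spearman's rho from 0.75 to 1.0 in the 6 groups (adjusted exact permutation p from 0.0017 to 0.0096 for r and up to 0.12 for rho). Saa1 and Lcn2 had r from 0.79 to 0.99 and rho from 0.86 to 1.0 (adjusted exact permutation p from 0.0017 to 0.042 for r and up to 0.035 for rho). The Saa1 and Lcn2 relation passed in all 6 groups, and without the 2 livers farthest from the median of Saa1 its r was 0.84 to 0.95. In DN:HET the livers left out in this way were not needed for it, since r was 0.94 without them. Hp and Hpx had r from 0.75 to 0.98 and rho from 0.71 to 1.0 (adjusted exact permutation p from 0.0017 to 0.048 for r and up to 0.12 for rho). Without the 2 farthest livers r was 0.82 to 0.96 in 5 groups and 0.45 in KO:HET, where the relation rests on those livers. Orm2 and Lcn2 had r from 0.81 to 0.96 and rho from 0.71 to 0.98. They passed by r in 5 of 6 groups, with an adjusted exact permutation p of 0.060 for r in DN:HOM and up to 0.15 for rho. Saa1 and Saa3 passed in 4 of 6 by r, and in DN:HOM livers their r was -0.21. By rho their adjusted exact permutation p was 0.037 in DN:WT and 0.014 in DN:HET, but 0.079 in KO:WT and 0.094 in KO:HOM. Saa1 and Crp passed in 0 of 6 groups, with r from -0.56 to 0.22. Livers of 1 group share the study and diet but differ in depth and in macrophage marker levels, whose part in these relations was not tested.

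**Figure D4:**
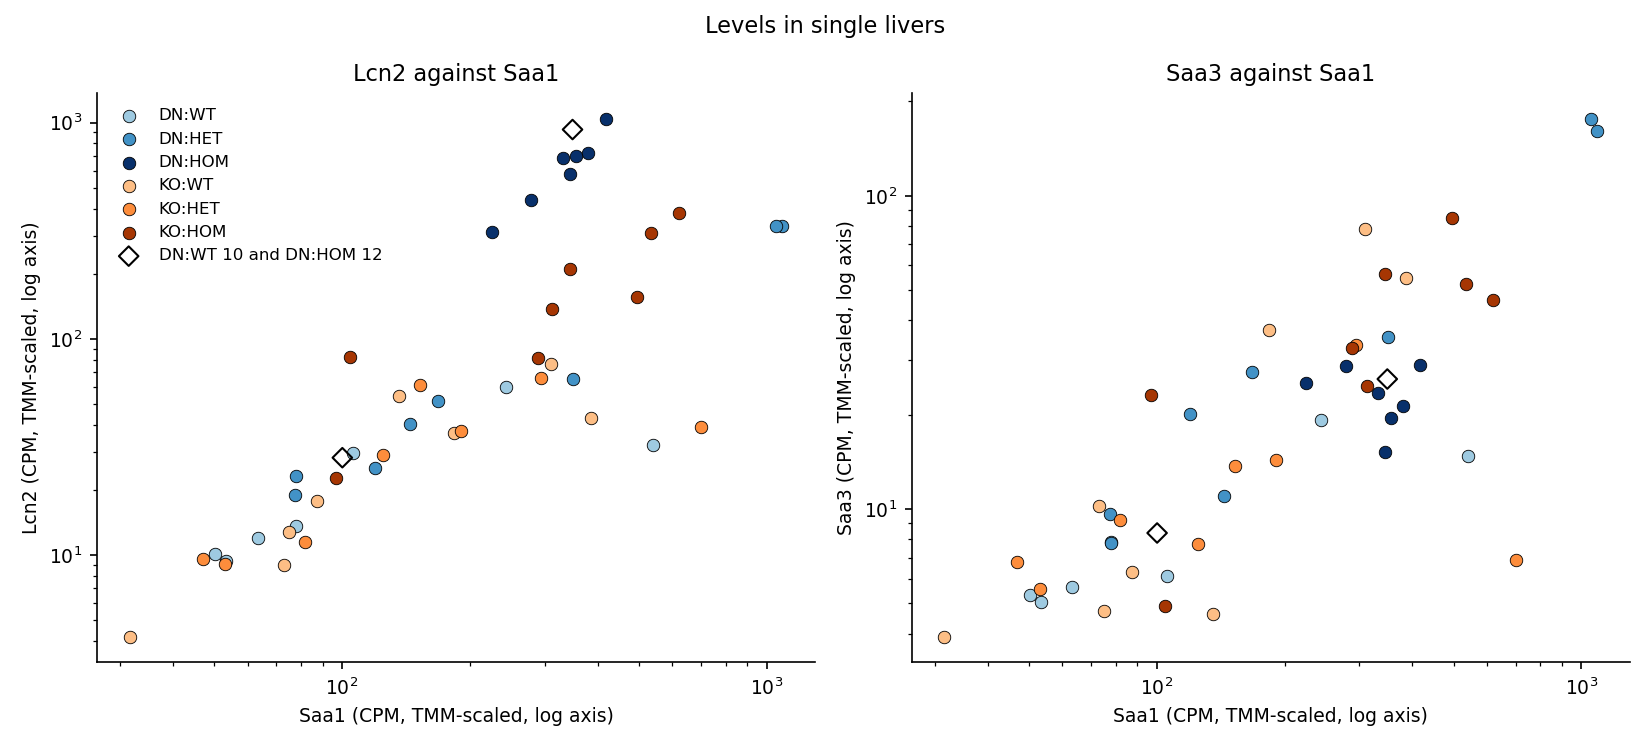
Lcn2 (left) and Saa3 (right) against Saa1 in each liver, both axes in CPM on log scales, coloured by group, with open diamonds for the libraries labelled DN:WT animal 10 and DN:HOM animal 12. Lcn2 follows Saa1 within every group (r from 0.79 to 0.99), with DN:HOM livers above livers of other groups at like Saa1, while Saa3 passed the correlation test by r in 4 of 6 groups.

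Across all livers, genes were ranked by how closely their deviations from the group means followed those of a given gene, by Spearman's rho over 46 livers and 11710 genes with a mean log2 CPM above 1. Nearest to Saa1 were Saa2 (0.985), Lcn2 (0.921), Orm2 (0.905) and Orm1 (0.881). Nearest to Lcn2 were Orm2 (0.928), Saa2 (0.924), Saa1 (0.921), Orm1 (0.887) and Lgals3 (0.868), which encodes galectin 3. The 4 genes nearest to Orm2 were again of this set, Lcn2 (0.928), Saa1 (0.905), Orm1 (0.888) and Saa2 (0.881), followed by Tmem176b (0.797). Saa3 had other neighbours, Slfn2 (0.864), Irf8 (0.854), Ncf1 (0.846), Itgb2 (0.844) and Itgb7 (0.844), of which Irf8 is a transcription factor of myeloid cells and Itgb2 and Itgb7 encode leukocyte integrins. For Saa3, Saa1 ranked 54th and Lcn2 127th. These are descriptions over livers that share 2 studies and carry no test.

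Levels of different genes were compared as CPM per kilobase of canonical transcript (RPKM). In every group Hp, Hpx and Orm1 ranked highest in that order and Saa3 lowest. Mean Hp was 2136 ± 659 RPKM in DN:WT and 5596 ± 717 RPKM in DN:HOM livers (SD, n = 7 each), and mean Hpx was 1999 ± 415 and 5223 ± 590 RPKM. Within single livers Hp exceeded Hpx per length in 4 of 7 DN:WT, 6 of 8 DN:HET, 7 of 7 DN:HOM, 8 of 8 KO:WT, 7 of 8 KO:HET and 8 of 8 KO:HOM livers. Lcn2 moved from rank 9 in DN:WT (26.1 ± 20.2 RPKM) to rank 4 in DN:HOM (699 ± 252 RPKM), above Saa1 at 440.2 ± 84.7 RPKM. With animal 10 kept, its DN:WT level was 149.6 ± 350.0 RPKM (SD, n = 8), rank 7. In KO:HOM livers it stood at 188 ± 132 RPKM, rank 7, with Saa1 at 462 ± 253 RPKM. Saa3 ranged between 9.08 ± 5.55 RPKM in DN:WT and 55.6 ± 69.5 RPKM in DN:HET livers.

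Further acute phase genes, taken from lists by role, did not move as a block. Their counts are those under TMM scaling, and with library size alone the median gene moved by 0.42 in DN:HOM. They are to be read beside the shares of all tested genes, 29.1% higher and 30% lower in DN:HOM, and 11.5% higher and 7.87% lower in KO:HOM livers. With library size alone (59.1% and 11.1% of all tested genes in DN:HOM), 20 positive genes were higher and 6 lower in DN:HOM, and 5 negative genes were higher and 7 lower. Of 32 further positive acute phase genes 31 were tested, and 13 were higher and 8 lower in DN:HOM than in DN:WT livers (median log2 fold change 0.12). The largest rises were of Ltf (lactoferrin, 5.91), Mt2 (4.13) and Mt1 (3.37), which encode metallothioneins, and Il1rn (3.68), the interleukin-1 receptor antagonist. C3 (0.96), Cp (ceruloplasmin, 0.77) and Lbp (0.61) rose less, the fibrinogen genes Fga, Fgb and Fgg were at -0.12, 0.07 and -0.09 with adjusted p from 0.44 to 0.63, and Hamp2 (-4.02), Orm3 (-1.96) and Serpina1d (-1.74) fell. Ltf is also a neutrophil granule gene. In KO:HOM livers 8 were higher and 1 lower (median 0.16), with Ltf at 2.27, Il1rn at 1.65 and Serpina3n at 0.55 among those that rose. Mt1 and Mt2 were at 0.11 and 0.46 there (edgeR adjusted p = 0.89 and 0.54). Of 17 negative acute phase genes, 14 fell and 2 rose in DN:HOM livers (median -0.46), with Apoa2 (-1.51), Pon1 (-1.36) and Alb (albumin, -1.14) among those that fell and Apom (0.87) and Trf (transferrin, 0.34) higher. In KO:HOM livers 7 fell and 0 rose (median -0.21), among them Apoa1 (-0.63) and Alb (-0.43). There 3 fell and 0 rose with library size alone (median -0.098). The count of negative genes that fell in DN:HOM livers thus changes from 14 to 7 with the scaling.

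Genes of the inducing pathways were taken from lists by role, with the same shares of all tested genes (29.1% higher and 30% lower in DN:HOM, 11.5% higher and 7.87% lower in KO:HOM livers). With library size alone, under which 59.1% of all tested genes were higher and 11.1% lower, the DN:HOM counts were 14 higher and 0 lower for the interleukin-6 list, 20 and 1 for the interleukin-1 list, and 5 and 2 for the C/EBP list. Among the interleukin-6 family and STAT3 genes 16 of 19 were tested, and 7 rose and 1 fell in DN:HOM livers (median 0.32), led by the ligands Lif (4.14) and Clcf1 (3.68), the oncostatin M receptor Osmr (2.44) and the feedback inhibitor Socs3 (2.15). Stat3 itself was 0.34 higher, and Lifr fell by 0.78. Il6 was not tested and reached at most 0.313 CPM in any of the 46 livers. In KO:HOM livers 7 rose and 0 fell (median 0.40), among them Socs1 (4.42), Clcf1 (1.70) and Socs3 (1.18). Socs1 was at 1.09 in DN:HOM livers and did not pass there (edgeR adjusted p = 0.10). Among interleukin-1, TNF and NF-kB genes 23 of 24 were tested, with 17 higher and 3 lower in DN:HOM (median 0.58) and 11 higher and 0 lower in KO:HOM livers (median 0.34). Tlr2 (2.88 and 2.13), Tnf (2.78 and 3.33), Relb (2.71 and 1.73) and Il1b (1.81 and 1.49) rose in both. Of 14 C/EBP, HNF and glucocorticoid genes, 2 rose and 5 fell in DN:HOM (median -0.25), falls near the 30% of all genes, with Cebpd at 1.13 and Cebpa at -0.73, and 0 rose and 2 fell in KO:HOM livers (median -0.13). The C/EBP list's median in DN:HOM was 0.18 with library size alone, below the median gene at 0.42. Cebpb, the C/EBP factor usually tied to the acute phase, was at -0.04 (edgeR adjusted p = 0.81).

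Of 19 tested partners and receptors of the 10 proteins, 9 rose and 5 fell in DN:HOM livers (median 0.30), beside 29.1% of all tested genes higher and 30% lower. Scaled by library size alone, 13 were higher and 3 lower, beside 59.1% and 11.1% of all tested genes. In KO:HOM livers 8 rose and 1 fell (median 0.21), beside 11.5% higher and 7.87% lower. Cd163, the macrophage receptor for haptoglobin bound to haemoglobin, went from 9.49 ± 1.79 CPM in DN:WT to 0.0919 ± 0.131 CPM in DN:HOM (SD, n = 7 each) and from 6.68 ± 3.26 CPM in KO:WT to 1.61 ± 1.05 CPM in KO:HOM livers (SD, n = 8 each). It fell in both lines (-6.52 and -2.12, edgeR adjusted p = 3.8e-14 and 3.7e-05) while Hp rose. Hmox1, which degrades haem, rose by 1.21 and 0.78, and Lrp1, the hemopexin receptor, was at -0.40 (edgeR adjusted p = 0.00011) and 0.21 (edgeR adjusted p = 0.063). Fcgr3, a receptor for immunoglobulin that also binds pentraxins, rose in both (2.36 and 1.99). Slc22a17, a lipocalin 2 receptor, was 1.48 higher in DN:HOM livers, and Lrp2, another, was 1.32 lower. Both had few reads, for instance 1.19 CPM of Slc22a17 and 1.88 CPM of Lrp2 in DN:HET animal 4.

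Markers of several cell types moved with the same groups, in which 29.1% of all tested genes were higher and 30% lower (DN:HOM) or 11.5% higher and 7.87% lower (KO:HOM). Of 10 tested neutrophil markers 9 rose and 1 fell in DN:HOM livers, with summed levels of 4.36 to 8.35 CPM in DN:WT and 36.5 to 97.5 CPM in DN:HOM. Ly6g, a defining neutrophil marker, was at 0 in all DN:WT livers and reached at most 0.142 CPM in DN:HOM livers. In the knockout study the sums were 2.22 to 7.33 CPM in KO:WT and 5.17 to 31.2 CPM in KO:HOM livers. Of 12 macrophage markers 11 rose and 0 fell in DN:HOM, from 109.8 to 192 CPM in DN:WT to 1126 to 1765 CPM, and 10 rose in KO:HOM livers, from 83.5 to 226 CPM to 300.1 to 1146 CPM. The 7 markers of resident Kupffer cells all fell in DN:HOM livers, from 147 to 278 CPM to 2.04 to 4.14 CPM, and 5 fell in KO:HOM livers. Of 10 stellate cell markers 9 rose in DN:HOM and 6 in KO:HOM livers. T cell markers went from 2.37 to 4.50 CPM in DN:WT to 7.65 to 14.5 CPM in DN:HOM (5 of 7 rose), and from 2.32 to 6.59 CPM in KO:WT to 7.88 to 27.2 CPM in KO:HOM livers (7 of 7 rose). The sums of 7 adipocyte-type markers, of which 3 were tested and fell, went from 160.7 to 313 CPM in DN:WT to 14 to 22.98 CPM in DN:HOM livers. Erythroid markers had a median sum of 408 CPM in DN:WT and 184 CPM in DN:HOM livers, with 2 of 5 lower under TMM and 1 with library size alone. Cholangiocyte markers rose in DN:HOM (6 of 7, from 10.4 to 19.6 CPM to 59.0 to 75.4 CPM) and showed 0 rises and 1 fall in KO:HOM livers. Of 12 hepatocyte markers 10 fell in DN:HOM and 6 in KO:HOM livers (8 and 2 with library size alone, where the median gene of DN:HOM moves up by 0.42), while Hp, Hpx, Orm1 and Apcs, products of hepatocytes, rose in DN:HOM. The part of these cell types in the levels of the 10 genes was not tested.

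**Figure D5:**
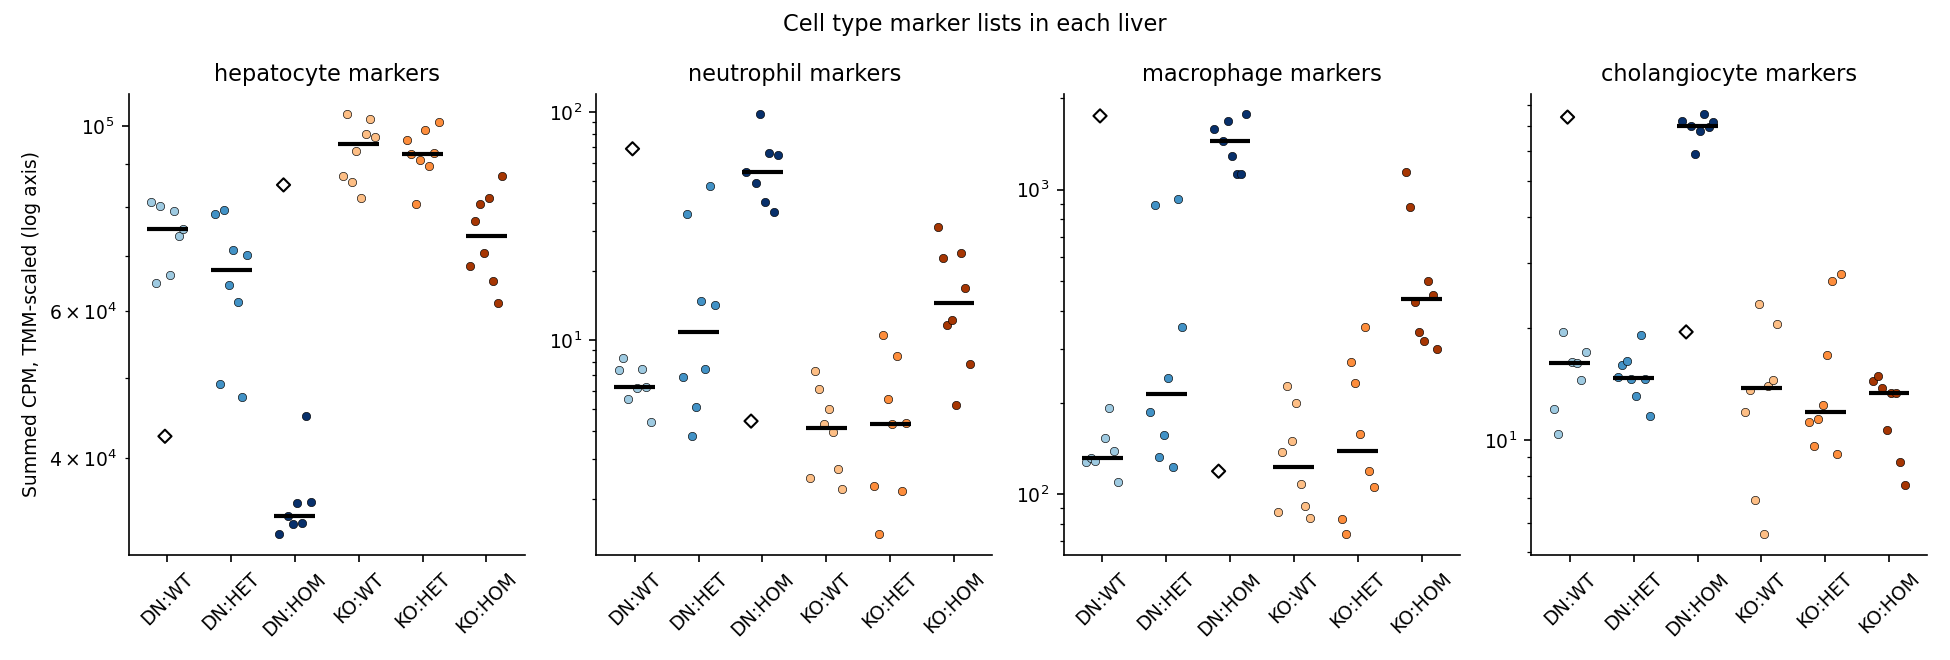
Summed CPM of the hepatocyte, neutrophil, macrophage and cholangiocyte marker lists in each liver by group, on a log axis, with bars at the medians of the 46 livers used and open diamonds for the libraries labelled DN:WT animal 10 and DN:HOM animal 12. Neutrophil and macrophage sums of DN:HOM livers (36.5 to 97.5 and 1126 to 1765 CPM) lie above those of DN:WT livers (4.36 to 8.35 and 109.8 to 192 CPM), and hepatocyte sums lie below.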

How the data were processed

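Per the labels and the submitters' processing notes, the authors aligned reads from 48 livers to GRCm39 with STAR 2.5.0a and deposited its table of read counts per gene for each liver, unnormalised and without molecular identifiers. The column of the strand that matched the library was used, since its counts exceeded those of the other strand 6.97-fold to 8.62-fold. The 4 summary lines that name no gene were left out; reads assigned to no gene were 24.02% to 34.99% and multimapping reads 6.01% to 8.13% of these tables. No liver's counts were identical to another's. Each liver came from its own numbered mouse.

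Genes passing edgeR's filter by expression were tested with edgeR 4.0.16 (R 4.3.3, limma 3.58.1), by the quasi-likelihood test over 6 groups with TMM factors, on 46 livers, 1 fit for all comparisons, with a prior count of 2. The 10 genes, the gene lists, the naming rule and the tests were chosen with earlier results of these data known. Genes named from a list were those with its largest and smallest changes and others by role, and the genes most like Saa1, Saa3, Orm2 and Lcn2 were the first 5 by Spearman's rho; a few genes that these rules select are not reported here. Alternatives were DESeq2 1.42.0, other scalings and filters, each study or the compared groups alone, all 48 livers, and leaving out each of the 46 livers in turn. Shares and correlations used exact permutation tests in scipy 1.17.1. Data were also simulated for DN:HOM against DN:WT (15409 genes), with 200 genes changed, as many up as down. There edgeR called 73% of changes of 1 and 95% of changes of 2 on the log2 scale, with 14 of 15211 unchanged genes called. So few and balanced changes do not test the choice of scaling, on which the counts of DN:HOM depend.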

Additional observations from a re-analysis of the deposited data

Results flagged for a closer look

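Of 60 groups of livers tested for a single animal standing apart (Dixon's test on CPM, not on log2 CPM), 6 were flagged, 5 of them in KO:HET. Chance would flag about 1 of 20 groups if values were normally spread and groups independent. CPM of several of these genes were skewed, and some genes moved together, so the 6 are not to be read against that rate. DN:WT animal 5 had 540.8 CPM of Saa1, far above the other wild-type knock-in livers. KO:HET animal 15 stood apart for Saa1 (702.2 CPM), Saa2 (424.2 CPM) and Apcs (84.42 CPM). KO:HET animal 4 had 33.4 CPM of Saa3, and KO:HET animal 9 had 4919 CPM of Hpx. No single liver was flagged for Hp, Orm1, Orm2, Crp or Lcn2 in any group.

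The homozygous effect differed between the studies by a test of the difference itself for 4 genes. The knock-in effect was larger by 1.284 on the log2 scale for Apcs (edgeR adjusted p = 3.6e-05), by 0.93 for Hp (edgeR adjusted p = 0.0020), by 0.832 for Hpx (edgeR adjusted p = 0.0046) and by 2.317 for Lcn2 (edgeR adjusted p = 0.029). With the libraries labelled DN:WT animal 10 and DN:HOM animal 12 kept, Apcs alone still passed (0.94, edgeR adjusted p = 0.026), Hp was at 0.51 (edgeR adjusted p = 0.28), Hpx at 0.43 (edgeR adjusted p = 0.37) and Lcn2 at -0.41 (edgeR adjusted p = 0.85). Allele, colony and site cannot be told apart in these differences.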

How the results depend on the processing

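No paired analysis was possible because animal numbers were not shared by the groups of a study and mark no litter across studies. The counts of genes past the threshold kept within 1.5 times the values above in 447 results of repeated fits and moved in 21. With all 48 livers under their labels, 2 genes passed in KO:HOM against KO:WT by edgeR and 2 by DESeq2, 0 and 1 in DN:HET against DN:WT, 1 and 2 in KO:HOM against KO:HET, and 1 and 1 for the difference between the studies, while DESeq2 called 1 between the wild-type groups. The KO livers are the same with 46 and 48 livers, and the spread of a gene is estimated over all 6 groups. In DN:HET against DN:WT, 0 passed with the compared groups alone (46 or 48 livers) and without DN:HET animals 4 and 22, and 1 with each study alone. Leaving out each liver gave 0 to 3 genes there, with 0 without DN:WT animal 2, 7, 21 or 28 or DN:HET animal 4 or 22 and 1 without DN:WT animal 13. It gave 0 to 1 gene between the wild-type groups (1 without KO:WT animal 23).

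Directions reversed as follows on the log2 scale. With library size alone Crp was 0.15 in DN:HOM, and the difference between the studies was 0.15 for Crp, 0.23 for Saa1 and 0.23 for Saa2. This scaling moves the median of all tested genes up by 0.42 and 0.31 in these comparisons, and all 4 values lie below it. Leaving out each liver gave -0.39 to 0.62 for Saa1 and -0.53 to 0.46 for Saa2 in that difference. Without DN:HET animals 4 and 22, the DN:HET changes were -0.052 for Saa1, -0.097 for Saa2, -0.008 for Orm1 and -0.068 for Apcs. Over all 48 livers (edgeR, DESeq2, and the compared groups alone) they were -0.135, -0.135 and -0.136 for Apcs and -0.301, -0.314 and -0.332 for Lcn2. The difference between the studies was then -0.124 and -0.105 for Orm2 and -0.405 and -0.397 for Lcn2 by edgeR and DESeq2. Calls of Lcn2, Orm2, Hp, Hpx, Apcs and Orm1 in DN:HOM against DN:WT kept their direction in every setting run and were lost in 1, Lcn2 with the compared groups alone and 48 livers (2.04, adjusted p = 0.10). In KO:HOM against KO:WT, Hp was also lost without the filter on low counts (0.47, adjusted p = 0.054). The causes were not tested.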
